A study of Mus musculus with 6 samples.

Results

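Among the mouse miRNAs on the arrays, a small set is made without the nuclear Microprocessor. By name the set comprised 5 miRNAs, mmu-miR-320, mmu-miR-484, mmu-miR-877, mmu-miR-1224 and mmu-miR-702 (mmu, mouse, is dropped from here on), and strands marked with an asterisk were left out. Of these, 4 had an assay of exactly that name among the 596 mouse miRNA assays, and 3 of the 4 (miR-320, miR-484 and miR-702) were detected in all 6 aortas. MiR-1224 had an assay but no signal in any aorta, and miR-877 is not analysed here beyond the opposite strand of its hairpin, which the table lists as miR-877*.

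The study read miRNAs with real-time PCR arrays from whole aortas of female Apoe-/- mice. In EC-Dicerflox mice (VE-Cadherin-CreERT2 Dicer1flox/flox Apoe-/-, n = 3) tamoxifen induces deletion of Dicer1 in endothelial cells. EC-DicerWT littermates (VE-Cadherin-CreERT2 Dicer1WT/WT Apoe-/-, n = 3) carry the intact gene. The study reports Dicer mRNA in isolated aortic endothelial cells of EC-Dicerflox mice as reduced, not absent. Both groups carried the Cre transgene and the Apoe deletion, received tamoxifen (2 mg per 20 g body weight) on 5 days, and from 6 to 8 weeks of age spent 12 weeks on a high-fat diet, in which casein made up 19.5%, crude fat 21% and cholesterol 0.15%. The Cre recombinase is driven by the VE-cadherin promoter and is therefore aimed at endothelial cells, whereas the RNA came from the whole aorta, and Dicer1 mRNA itself is not among the assays.

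In the canonical pathway the Microprocessor, formed by the RNase Drosha and its partner DGCR8, crops a hairpin out of a long primary transcript, and Dicer then removes the loop of that hairpin in the cytoplasm to leave the mature miRNA. MiR-320 and miR-484 skip the first cut because their short hairpins arise directly at the start of transcription. MiR-877 and miR-1224 are mirtrons, and miR-702 has been described as another, which are short introns that the spliceosome releases and that fold into a hairpin after debranching. All of them still need Dicer. MiR-451 is the mirror image, since it is cropped by Drosha but finished by Argonaute 2 without Dicer. The comparison between the groups therefore addresses whether miRNAs that depend on Dicer, but not on Drosha, differ in aortas with endothelial deletion of Dicer1.

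The mature sequences are shown because the seed, bases 2 to 8, sets which targets a miRNA pairs with, and it is given here in capitals. They are from RefSeq on GRCm38.p6, written 5′ to 3′. For miR-702 and miR-1224 the assay names do not say which arm of the hairpin is measured, and the asterisk of miR-877* says only that it is the strand opposite to miR-877, so both arms are printed.
miR-484 (chr16:14159630-14159651, plus strand): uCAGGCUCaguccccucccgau
miR-702-5p (chr5:136991442-136991462, plus strand): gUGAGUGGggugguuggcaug
miR-702-3p (chr5:136991520-136991541, plus strand): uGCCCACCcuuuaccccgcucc
miR-1224-5p (chr16:20604452-20604472, plus strand): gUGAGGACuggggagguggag
miR-1224-3p (chr16:20604516-20604536, plus strand): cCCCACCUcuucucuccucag
miR-877-5p (chr17:35960795-35960814, minus strand): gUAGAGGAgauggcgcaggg
miR-877-3p (chr17:35960731-35960752, minus strand): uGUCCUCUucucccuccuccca
No seed was shared among these 7 sequences. Of 1738 mature sequences in the table, the seed of miR-702-5p was found in 1 other, miR-3102-5p, and each of the other 6 seeds was found in no other. Their GC content ranged from 59.1% to 68.2%, against a median of 52.2% over all mature sequences.

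The hairpins are shown because the ends of a mirtron are splice sites, GU at the 5′ end and AG at the 3′ end. Capitals mark the mature arms.
Mir1224 (chr16:20604452-20604536, plus strand): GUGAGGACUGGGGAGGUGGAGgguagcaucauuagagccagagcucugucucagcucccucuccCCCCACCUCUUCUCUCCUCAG
Mir877 (chr17:35960730-35960814, minus strand): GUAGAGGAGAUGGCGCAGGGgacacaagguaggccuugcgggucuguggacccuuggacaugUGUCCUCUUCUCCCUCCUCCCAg
Mir702 (chr5:136991433-136991541, plus strand): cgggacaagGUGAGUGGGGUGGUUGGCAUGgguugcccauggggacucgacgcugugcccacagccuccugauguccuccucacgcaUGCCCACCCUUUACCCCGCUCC
Mir484 (chr16:14159626-14159692, plus strand): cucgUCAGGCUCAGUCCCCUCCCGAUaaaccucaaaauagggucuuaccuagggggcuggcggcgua
The hairpins of Mir1224 and Mir877 start with GU and end with AG over their whole length of 85 bases, a pattern held by 30 of the 1005 mouse hairpins in the table (2.99%), read on the strand of the miRNA. The hairpin of Mir702, 109 bases long, has other ends. Its 5p arm starts at base 10 with GUGAG, letters that open 14 of the 1738 mature sequences (0.806%), miR-1224-5p among them, but its annotated 3p arm runs to the end of the hairpin and ends with CC, not AG. Mir484 shows neither end. By the gene spans of the same annotation Mir1224 lies within Vwa5b2, Mir877 within Abcf1 and Mir702 within Plod3, whereas Mir320 and Mir484 overlap no protein-coding gene and have Polr3d and Marf1, respectively, as their nearest ones. The annotation used here gives gene spans without exons, so the intron itself was not checked. For miR-702 the ends cannot decide whether it is a mirtron. Its annotated hairpin starts before the 5p arm, so the hairpin ends need not be intron ends, and the bases beyond them were not read. Its place among the miRNAs made without the Microprocessor is therefore uncertain here.

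The arrays give a cycle threshold (Ct) per assay, which comes later the less RNA is present. A Ct of 40 means not detected, and precision is limited by the 3 mice per group. The level of a miRNA was taken as the reference Ct of the same sample minus the Ct of the miRNA, in cycles, which equals a log2 scale if the product doubles in each cycle. That was assumed and not measured. The reference Ct, the mean of 5 control small RNAs, ranged from 19.4 to 20.4 over the samples and differed by 0.16 cycles between the groups (P = 0.7, exact two-sided permutation test). Single controls differed by -0.22 to 0.34 cycles. On array card B, U87 came at 23.824 and 23.791 in the third replicates, against 21.285 to 22.530 in the other samples. Y1 came there at 24.324 in EC-Dicerflox replicate 3, against 21.341 to 22.536 elsewhere. The reference of the third replicates leans on these wells, but not on them alone. On both cards snoRNA202 and snoRNA135 were also latest in the third replicates, whereas U6 was not. On card A, snoRNA202 came at 17.199 and 17.119 there, against 16.366 to 16.623 in the other samples. The cell-type miRNAs included those of whole aorta, with the smooth muscle miR-143 and miR-145 at mean Ct values of 16.2 and 14.7. The endothelial miR-126-3p came at 17.5 and the neuronal miR-124 at 36.0. The erythrocyte miR-451 (20.1) and 3 leukocyte miRNAs (19.5 to 21.2) were also detected in all samples. So were the striated muscle miR-133a (18.63), miR-1 and miR-208, and the liver miR-122 (23.97). Whether other tissue was present in the samples was not tested. In such bulk samples fewer cells of a type and less RNA per cell cannot be told apart.

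None of the 3 detected members differed between the groups at an adjusted limma P under 0.05, which was also the case for all 439 tested miRNAs (0 called, or 0%). Without adjustment none of the 3 passed 0.05 either, against 21 of 439 (4.78%). For each of the 3 the values of the groups overlapped, whereas they did not overlap for 43 of 439 miRNAs (9.79%), of which 31 (7.06% of those tested) were lower in EC-Dicerflox aortas. All 3 had a lower mean level in EC-Dicerflox aortas, as did 271 of the 439 (61.7%), but the difference of miR-320 was close to 0 and its sign depended on the reference.

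**Figure D1:**
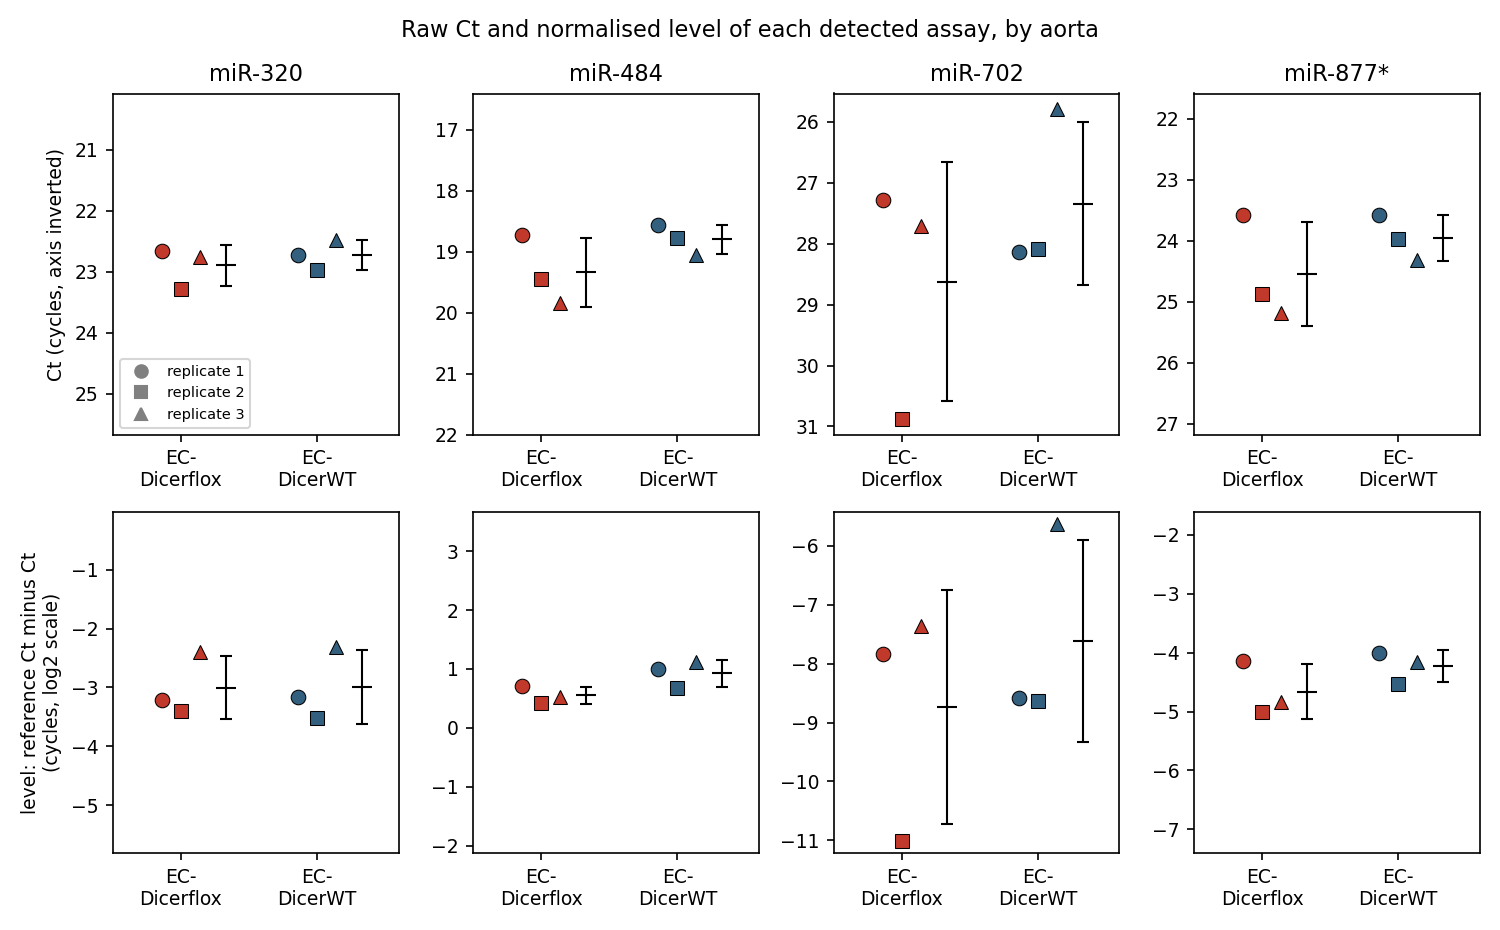
Raw Ct (upper row, axis inverted so that more RNA is higher) and level relative to the control RNAs (lower row, cycles on the log2 scale) of miR-320, miR-484, miR-702 and miR-877* in 3 EC-Dicerflox (red) and 3 EC-DicerWT (blue) aortas. Symbols are single aortas and bars are the mean and SD, n = 3. The groups overlap in each panel, miR-484 and miR-320 stay within 1.27 and 0.80 cycles of raw Ct over all aortas, and miR-702 spans 5.08 cycles.

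MiR-484, which represses the mitochondrial fission gene Fis1, gave the earliest Ct of the set. Its Ct was 18.730, 19.445 and 19.839 in EC-Dicerflox and 18.567, 18.773 and 19.053 in EC-DicerWT aortas. By mean Ct (19.07) it stood 23rd among the 249 assays of its card, card A, that were detected in all samples, which ranks signals and not amounts, since assays differ in efficiency.

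After subtraction from the reference, the level of miR-484 was 0.71, 0.43 and 0.52 in EC-Dicerflox and 1.00, 0.67 and 1.12 in EC-DicerWT aortas. The groups overlapped only through EC-Dicerflox replicate 1, which lay just above EC-DicerWT replicate 2. The EC-Dicerflox mean was 0.55 ± 0.14 (SD, n = 3) and the EC-DicerWT mean 0.93 ± 0.23 (SD, n = 3). The difference was -0.38 ± 0.23 (SE) on the log2 scale, or 76.9% of the EC-DicerWT level. Its limma P was 0.15 without adjustment, and the adjusted limma P was 0.99. By the exact permutation test P was 0.2, where 3 against 3 samples allow no less than 0.1. Its 95% confidence interval ran from -0.95 to 0.19, or from 51.7% to 114% of the EC-DicerWT level, a range that holds both equal levels and a level near 52%.

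In its level relative to the reference, miR-484 was among the most even miRNAs of the arrays. The pooled SD of the level within groups was 0.19, and 7.74% of the tested miRNAs had a smaller one. The median was 0.27 among the 39 miRNAs with a mean Ct under 20. Its raw Ct was less even, with a span of 1.27 cycles against 0.80 for miR-320. A difference of larger size, in either direction, was found for 186 of the 439 tested miRNAs. In replicates 1 and 2 alone the difference was -0.27 (unadjusted limma P of 0.43), and between the third replicates, with 1 sample per group and no test, it was -0.60.

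MiR-320, made from a capped hairpin, had the narrowest range of raw Ct among the detected members and the smallest difference between the groups. Its Ct was 22.654, 23.277 and 22.754 in EC-Dicerflox and 22.733, 22.972 and 22.475 in EC-DicerWT aortas. Both groups thus lay within a range of 0.80 cycles and were interleaved.

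The level of miR-320 was -3.21, -3.41 and -2.40 in EC-Dicerflox and -3.16, -3.53 and -2.31 in EC-DicerWT aortas. In both groups the third replicate was the highest, above the range of -3.53 to -3.16 of the other 4 samples, and in these 2 samples the reference Ct was also the latest (20.4 and 20.2, against 19.4 to 19.9). The difference between the groups was -0.01 ± 0.45 (SE) on the log2 scale, or 99.5% of the EC-DicerWT level (adjusted limma P = 0.99, exact permutation P = 1). The interval from -1.15 to 1.14, or 45.0% to 220% of the EC-DicerWT level, leaves room for changes of about the 2-fold size in either direction. The pooled SD of its level was 0.58, wider than that of 54.2% of the tested miRNAs and of miR-484 (0.19). With the third replicates entered as a batch term the SE was 0.21, and in replicates 1 and 2 alone the difference was 0.03 ± 0.29 (SE).

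MiR-702, whose origin as a mirtron is uncertain, was the faintest and most variable of the detected members. Its Ct was 27.283, 30.878 and 27.715 in EC-Dicerflox and 28.146, 28.086 and 25.799 in EC-DicerWT aortas. A single late value in EC-Dicerflox replicate 2 and a single early value in EC-DicerWT replicate 3 set the range of 5.08 cycles, and the other 4 aortas lay between 27.283 and 28.146 with the groups apart in the opposite direction, EC-Dicerflox earlier.

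The level of miR-702 was -7.84, -11.01 and -7.36 in EC-Dicerflox and -8.58, -8.64 and -5.63 in EC-DicerWT aortas. The EC-Dicerflox mean was -8.74 ± 1.98 (SD, n = 3) and the EC-DicerWT mean -7.62 ± 1.72 (SD, n = 3). This was a difference of -1.12 ± 1.33 (SE), to 46.0% of the EC-DicerWT level (adjusted limma P = 0.99, exact permutation P = 0.6). Its interval ran from -4.49 to 2.25, or from 4.44% to 476% of the EC-DicerWT level. Without EC-Dicerflox replicate 2 the difference was 0.01, and without EC-DicerWT replicate 3 it was -0.13, so the lower mean rests on these 2 wells. Its pooled SD of 1.85 exceeded that of 81.5% of the tested miRNAs, and the median was 0.50 among the 167 miRNAs with a mean Ct of 25 to 30.

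MiR-1224, a mirtron whose hairpin has both splice-site ends, had a Ct of 40 in all 6 aortas, as did 106 of the 596 miRNA assays. Its levels therefore have no order and no fold was computed. This says only that the assay gave no signal within 40 cycles in whole aorta, where the miRNA is either absent or below what the assay reads, and no positive control for this assay is among the samples.

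Of the miR-877 hairpin only the opposite strand is described, and its level need not follow that of miR-877. The Ct of miR-877* was 23.576, 24.878 and 25.192 in EC-Dicerflox and 23.576, 23.975 and 24.323 in EC-DicerWT aortas, with the same Ct in the first replicates of both groups. The groups overlapped. Its level averaged -4.66 ± 0.46 (SD, n = 3) with the deletion and -4.23 ± 0.27 (SD, n = 3) without it. MiR-877* thus stood at 74.2% of its EC-DicerWT level, a difference of -0.43 ± 0.32 (SE, adjusted limma P = 0.99, exact permutation P = 0.3), and its 95% confidence interval ran from -1.25 to 0.39. The third replicates alone differed by -0.68 and replicates 1 and 2 by -0.30.

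**Figure D2:**
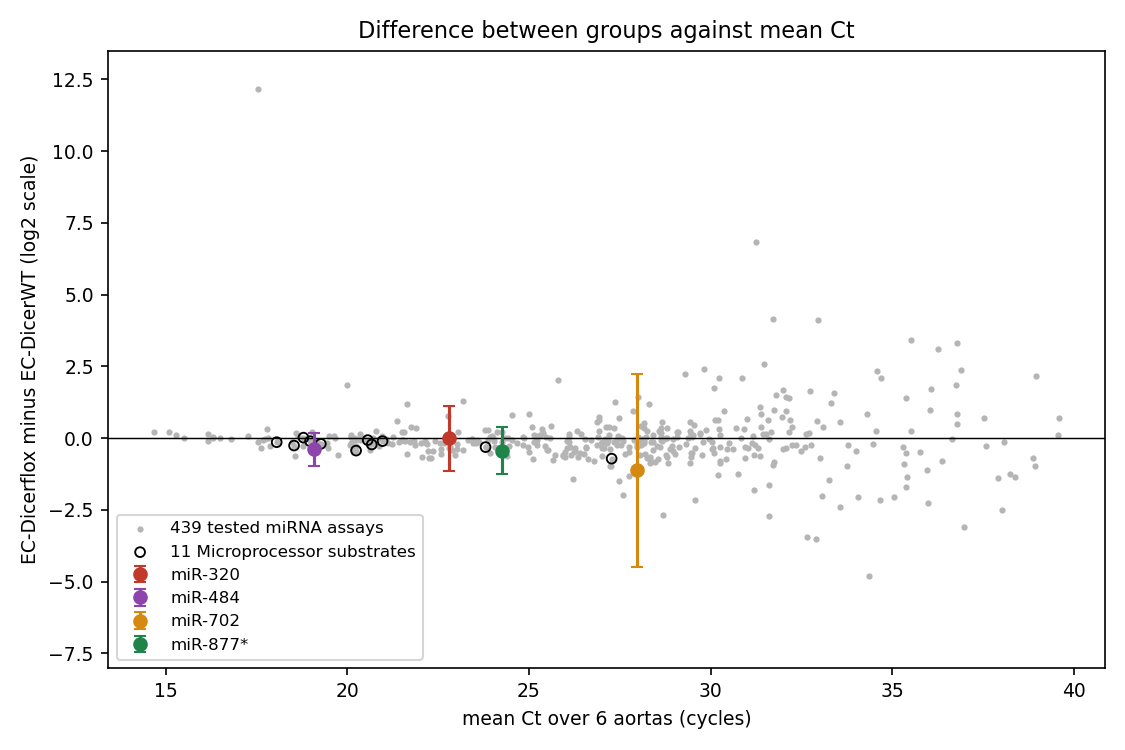
Difference of each of the 439 tested miRNAs between EC-Dicerflox and EC-DicerWT aortas (log2 scale) against its mean Ct over 6 aortas (cycles), in grey, with miR-320, miR-484, miR-702 and miR-877* in colour (bars, 95% confidence interval of limma) and 11 Microprocessor substrates as open circles. The coloured points lie within the grey cloud, all 4 intervals include 0, and the interval of miR-702 is the widest, from -4.49 to 2.25.

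For comparison, 11 miRNAs that are textbook substrates of the Microprocessor and need Dicer as well were taken as a list (let-7a, miR-16, miR-17, miR-18a, miR-19a, miR-19b, miR-20a, miR-92a, miR-21, miR-30a and miR-31). Of these, 10 were lower and 1 was higher in EC-Dicerflox aortas, beside 61.7% lower among all 439 tested miRNAs, with a median difference of -0.20 and a range from -0.71 for miR-18a to 0.02 for miR-30a, and none passed the adjusted or the unadjusted limma threshold. With U6 as the reference miR-30a was lower too. The median over all 439 tested miRNAs was -0.10. The count is not one of independent members, since miR-17, miR-18a, miR-19a, miR-19b, miR-20a and miR-92a are cut from the transcript of the miR-17-92 cluster. The differences of miR-320 (-0.01) and miR-484 (-0.38) lay inside the range of this list and that of miR-702 (-1.12) below it. Whether miRNAs with and without a Drosha cut differ as classes was not tested.

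MiR-712 is cut from the precursor of ribosomal RNA and is known to be induced by disturbed flow in endothelium. Its level averaged -5.07 ± 0.61 (SD, n = 3) with the deletion and -5.46 ± 0.55 (SD, n = 3) in EC-DicerWT aortas, a difference of 0.39 ± 0.45 (SE) with an adjusted limma P of 0.99. The opposite strand, miR-712*, was not detected in any aorta.

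Each member was read in 1 well per sample. Within a sample the Ct gap between assays of the same card needs no reference RNA. Of the 6 pairs intended, 3 could be computed, since miR-1224 was undetected and miR-877 is not analysed here. The Ct of miR-320 minus that of miR-484 was 3.92, 3.83 and 2.92 cycles in EC-Dicerflox and 4.17, 4.20 and 3.42 cycles in EC-DicerWT aortas. The gap was smallest in the third replicate of each group, and the groups overlapped. The mean gap differed by -0.37 ± 0.41 cycles (SE), with an exact two-sided permutation P of 0.5 and 0.75 after Benjamini-Hochberg adjustment over the 3 pairs.

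The Dicer-independent miR-451 served as the other partner. Its Ct was 19.995, 19.799 and 20.701 in EC-Dicerflox and 20.360, 19.402 and 20.402 in EC-DicerWT aortas, and its level differed by 0.05 ± 0.32 (SE) with an adjusted limma P of 0.99. MiR-451 comes from red blood cells, and the other erythrocyte miRNA measured, miR-486, differed by 0.02.

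Relative to miR-451, the Ct of miR-484 was -1.27, -0.35 and -0.86 cycles in EC-Dicerflox and -1.79, -0.63 and -1.35 cycles in EC-DicerWT aortas. The gap was 0.43 ± 0.43 cycles (SE) later in EC-Dicerflox aortas, with overlap between the groups and an exact permutation P of 0.4 (0.75 adjusted over the 3 pairs). The gap between miR-320 and miR-451 averaged 2.73 ± 0.72 cycles (SD, n = 3) with the deletion and 2.67 ± 0.79 cycles (SD, n = 3) without it, a difference of 0.06 ± 0.62 cycles (SE) with an exact permutation P of 1 before and after adjustment. With replicate numbers ignored, each mean difference was smaller than the SD of the gap in either group. Number by number, the gap of miR-484 and miR-451 was higher in EC-Dicerflox aortas every time. That of miR-320 and miR-484 was lower every time, and that of miR-320 and miR-451 went both ways.

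**Figure D3:**
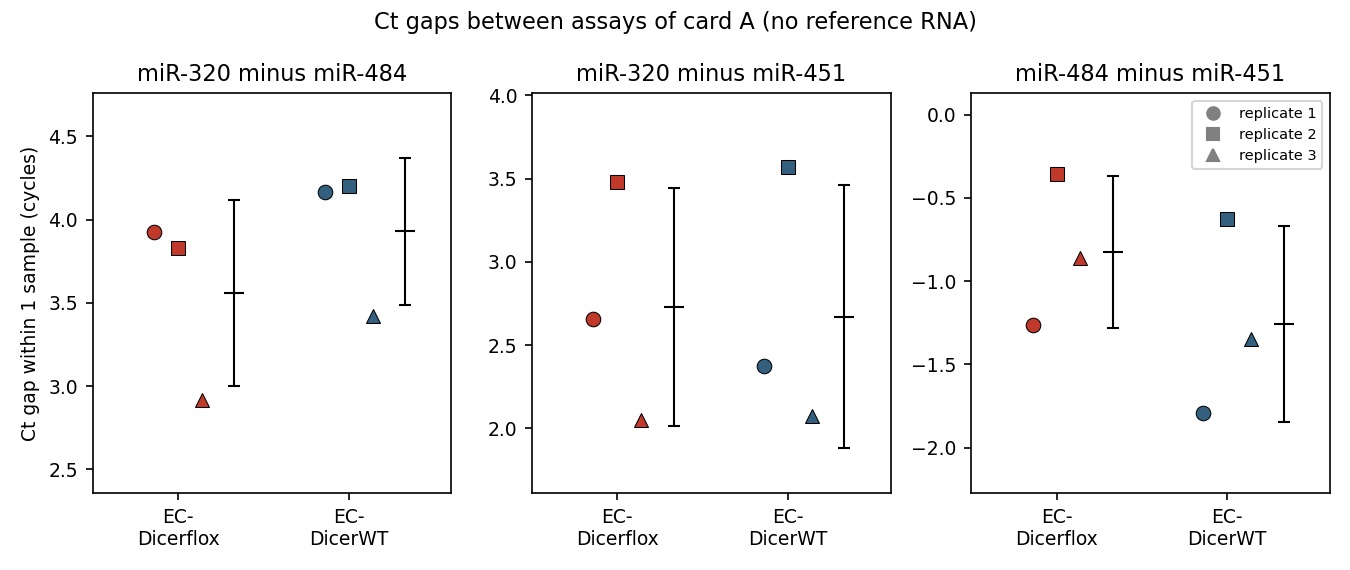
Ct of the first miRNA minus Ct of the second within each sample (cycles), for miR-320 and miR-484, miR-320 and miR-451, and miR-484 and miR-451, in 3 EC-Dicerflox (red) and 3 EC-DicerWT (blue) aortas. Symbols are single aortas, bars are the mean and SD, n = 3. The groups overlap in all 3 panels, with mean differences of -0.37, 0.06 and 0.43 cycles.

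The levels of the members were alike to differing degrees over the 6 aortas. As a description over 6 samples that share the same reference Ct, Pearson's r of the levels was 0.36 for miR-320 and miR-484, 0.79 for miR-320 and miR-702, and 0.66 for miR-484 and miR-702. Spearman's rho was 0.54, 0.89 and 0.60 for the same pairs. MiR-484 and miR-877* had an r of 0.87 and a rho of 0.83.

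Among the 393 other assays detected in all samples, the levels most like those of miR-320 were miR-151-3p (r = 0.992, rho = 0.886), miR-671-3p (r = 0.991, rho = 1) and miR-374-5p (r = 0.988, rho = 0.943). Their differences between the groups were -0.10, -0.04 and 0.08. For miR-484 they were miR-187 (r = 0.959, rho = 0.886), miR-208 (r = 0.941, rho = 0.886) and miR-301a (r = 0.941, rho = 0.829), with differences between the groups of -0.32, -1.65 and -0.69. For miR-702 they were miR-132 (r = 0.961, rho = 0.943), miR-669H-5P (r = 0.931, rho = 0.829) and let-7g (r = 0.921, rho = 0.943), with differences of -0.19, -0.96 and -0.12. Since r was taken over both groups together, a shared direction is partly built into this choice. Of the 393 assays, 26, 9 and 8 had an r over 0.9 with miR-320, miR-484 and miR-702, respectively.

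**Figure D4:**
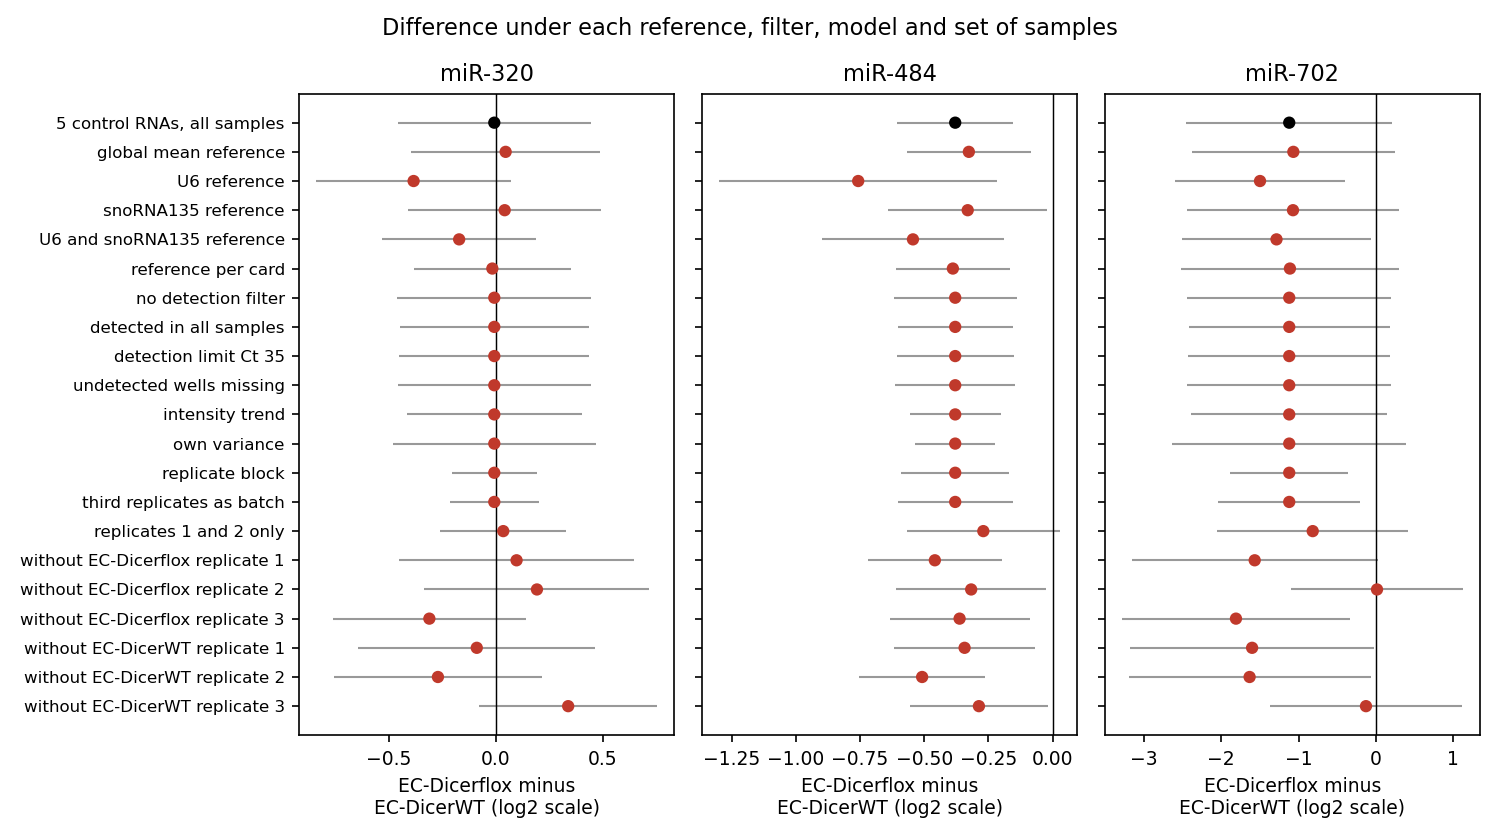
Difference between EC-Dicerflox and EC-DicerWT aortas (log2 scale) for miR-320, miR-484 and miR-702 with the 5 control RNAs as reference (black) and under 20 other settings of the reference, filter, model and samples (red). Bars are the SE. MiR-484 stays below 0, from -0.76 to -0.27, miR-320 lies on either side of 0, from -0.39 to 0.34, and miR-702 reaches 0.01 without EC-Dicerflox replicate 2. Filters, variance models, the replicate block and the batch term cannot move these differences, only their SE.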

How the data were processed

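The authors ran aortic total RNA on TaqMan array cards after reverse transcription and preamplification. What they deposited is a score, the raw Ct per assay, with 40 for not detected. How baseline and threshold were set is not given in the sources used here. Its 608 rows hold 596 mouse miRNA assays, 10 assays for 5 control RNAs and 2 plant assays. Cards were told apart by how assay numbers are written (335 miRNA assays on card A, 261 on card B). Groups and replicate numbers came from the sample titles.

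The reference Ct was the mean of snoRNA135, snoRNA202, U6, U87 and Y1, with cards averaged first. MiRNAs with a Ct under 40 in at least 3 of 6 samples were tested by limma 3.58.1 in R 4.3.3 (two-sided moderated fit, no block), with Benjamini-Hochberg adjustment over all 439. SEs and 95% intervals of level differences are those of the moderated fit, which was tested on simulated data, and SEs of Ct gaps are ordinary ones from the SDs of the groups. Single values were compared by exact permutation over 20 assignments. Named were the 5 members, their asterisk strands, miR-451, miR-712 and miR-126-3p, and for each detected member the 3 assays with the highest Pearson's r. Marker and comparison lists were given beside them. The members and lists were chosen with earlier results of these data known. Alternatives were other references, filters, detection limits and variance models, a replicate block, a batch term, replicates 1 and 2 alone, and leaving out each replicate. Same-numbered samples had correlations of deviations of 0.24, 0.03 and 0.39 for numbers 1, 2 and 3. The titles do not say whether same-numbered mice belong together. The main fit left the mice unpaired, a choice that these correlations do not settle, and results with a replicate block are given further on. Sequences and gene names are from RefSeq on GRCm38.p6, and 4 of the 5 miRNA genes matched the sequence table.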

Additional observations from a re-analysis of the deposited data

Results flagged for a closer look

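An assay for a plant miRNA, a negative control outside the comparisons, crossed the threshold at cycle 39.776 in EC-Dicerflox replicate 1, while the other 11 plant wells were not detected, so a signal was present where mice have no target. In comparison, the detected members had Ct values of at most 30.878.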

How the results depend on the processing

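In all 20 alternative fits no member passed an adjusted or unadjusted limma P of 0.05, with adjusted P values from 0.83 to 0.999. Filters, detection limits, variance models, the replicate block and the batch term could change the SE of a member but not its difference. The members were detected in all samples and the groups are balanced, so these settings say nothing about the sign. With the other references and sets of samples miR-484 was lower each time, from -0.76 (U6 as reference) to -0.27 (replicates 1 and 2 alone). Its leave-one-out values ran from -0.51 to -0.29. MiR-320 changed sign with the global mean (0.046) or snoRNA135 (0.041) as reference and in replicates 1 and 2 alone (0.035), and leaving out single replicates gave -0.31 to 0.34. MiR-702 then gave -1.81 to 0.014, the latter without EC-Dicerflox replicate 2. The gap between miR-320 and miR-451 gave -0.32 to 0.51 cycles, that between miR-320 and miR-484 -0.63 to -0.05, and that between miR-484 and miR-451 0.16 to 0.74. The median over all tested miRNAs was -0.48 with U6 and -0.27 with U6 and snoRNA135 as reference, against -0.10. U6 on card B came at Ct 16.623 in EC-DicerWT replicate 1 and at 15.075 to 15.391 in the other samples, whereas U6 on card A differed by 0.02 cycles between the groups, so values with U6 as reference lean on that well.

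Over all tested miRNAs, 11 had an unadjusted P under 0.05 with U6 as reference, and 8 (without EC-Dicerflox replicate 2) to 22 when single replicates were left out, against 21. Only 1 miRNA, no member, passed the adjusted threshold when a batch term marked the third replicates, and 1 in replicates 1 and 2 alone. What causes these shifts was not tested, beyond the fewer samples in some. A replicate block cannot change the differences, since each number holds 1 sample per group. It lowered the SE from 0.45 to 0.20 for miR-320, from 0.23 to 0.21 for miR-484 and from 1.33 to 0.76 for miR-702. No call changed, with adjusted limma P values of 0.99 for miR-320, 0.87 for miR-484 and 0.87 for miR-702. With the block 17 miRNAs had an unadjusted limma P under 0.05. For the gaps the block (exact sign flips within numbers) gave P values of 0.25, the smallest possible, for miR-320 and miR-484 and for miR-484 and miR-451, and of 1 for the other. The pairs with miR-1224 or miR-877 could not be computed.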
